A study of Mus musculus with 8 samples.

Results

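The 10 genes described here are known from mucosal epithelium and stood higher in both libraries of Ahr-deleted gut Treg cells than in both control libraries. They are 2210415F13Rik, Sprr2a1, Sprr2a3, Dmbt1, Tgm3, Slc6a4, Ckmt1, Mep1a, Krt8 and Krt19, 10 of the 19191 gene rows in the authors' deposited count table. They were chosen by name from a list made with the counts of this same comparison in view. Their differences between genotypes are therefore a description, given without a test.

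Treg cells, which are Foxp3-expressing regulatory T cells that restrain immune responses, were sorted from the large intestine lamina propria of C57BL/6 mice, and total RNA was sequenced after ribosomal depletion. The 2 KO samples had the genotype Ahrf/- Foxp3Yfp-Cre and the 2 WT samples the genotype Ahrf/+ Foxp3Yfp-Cre. Both groups thus carried the Foxp3-driven Cre and 1 floxed Ahr allele, so WT Treg cells kept 1 working allele and KO Treg cells none. Outside cells with Cre, KO mice had 1 working allele and WT mice 2, as read from these genotypes. No age is stated for the mice, and nothing says that replicates came from separate animals.

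The large intestine is lined by a single layer of epithelial cells that absorb, secrete mucus and hold bacteria away from the tissue. These cells are built on a scaffold of simple keratins and carry brush-border enzymes and transporters on the side that faces the lumen. Epithelial cells also release or display proteins that bind bacteria, and several of these are made more strongly when the gut is colonized or inflamed. Lamina propria T cells lie just beneath this layer.

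The total gene count ran from 26862922 to 62402450 per library. Lars2 took 0.0633% and 0.724% of the counts in KO replicates 1 and 2, against 0.0367% and 1.66% in WT replicates 1 and 2. Levels are therefore given in CPM, counts per 1000000 counts of the total without Lars2, with no further factor. A count of 0 allows up to 3 counts, which is 0.0969 and 0.0565 CPM in KO and 0.112 and 0.0489 CPM in WT. As a description of the sorted cells, 11 Treg and T cell genes of the table were summed. They came to 10900 and 10200 CPM in KO and 10000 and 9950 CPM in WT, and Foxp3 was among them. A sum of this size cannot show whether RNA of other cells was present at the far lower level of the members. The Ahr row held 531 and 516 CPM in KO and 581 and 559 CPM in WT. A deletion of part of the gene can leave a counted transcript, so this row does not check the labels.

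The sequences below show 2 things about the members. The start regions of Sprr2a1 and Sprr2a3 are near-copies of each other, and those of members whose levels moved together can be set side by side. RefSeq windows (GRCm38.p6) of 250 bases before to 50 after an annotated start were matched for 8 of the 10 members, which had 10 start sites between them. 2210415F13Rik was matched through Lypd8, for which RefSeq lists it as a synonym. In the first pair, capitals mark the longest run shared without a mismatch, 272 of 300 bases.
Sprr2a1 (chr3:92215585-92215884, plus strand): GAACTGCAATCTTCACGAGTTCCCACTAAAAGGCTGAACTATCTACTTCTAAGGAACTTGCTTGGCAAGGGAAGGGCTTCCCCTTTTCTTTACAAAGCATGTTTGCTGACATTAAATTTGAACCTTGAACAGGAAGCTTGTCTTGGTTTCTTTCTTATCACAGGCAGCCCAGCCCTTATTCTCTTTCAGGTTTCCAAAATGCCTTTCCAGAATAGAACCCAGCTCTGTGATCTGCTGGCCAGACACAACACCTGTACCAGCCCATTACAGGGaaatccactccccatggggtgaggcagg
Sprr2a3 (chr3:92285054-92285353, plus strand): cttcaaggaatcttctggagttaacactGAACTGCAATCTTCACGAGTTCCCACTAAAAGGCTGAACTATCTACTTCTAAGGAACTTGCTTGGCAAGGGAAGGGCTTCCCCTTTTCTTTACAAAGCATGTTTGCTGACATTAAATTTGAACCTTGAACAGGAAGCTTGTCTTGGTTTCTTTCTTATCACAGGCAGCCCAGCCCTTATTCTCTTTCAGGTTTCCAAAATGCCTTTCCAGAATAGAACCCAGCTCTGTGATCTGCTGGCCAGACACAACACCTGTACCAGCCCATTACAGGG

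The window of Sprr2a2, the third copy, was identical to that of Sprr2a1 over all 300 bases. These windows lie mostly before the start, so they do not show how alike the transcripts are. The reads were 50 bases long. In the deposited mm9 annotation the row of Sprr2a2 also overlapped the row of Sprr2a1 by 6566 bases and that of Sprr2a3 by 6567 bases. The handling of reads that match several copies is not stated, so the Sprr2a rows cannot be told apart with certainty.

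Windows of 5 genes with a matched motif are shown next, with the matched letters in capitals. Krt18 is not a member and stands beside Krt8 because it is the neighbour and keratin partner of Krt8. The 4 motifs were searched on both strands. The TATA box was searched as TATAAA and the core bound by Ahr as GCGTG. The site of CDX factors was searched as TTTATNG. The site of STAT factors was searched as TTCNNNGAA. TATAAA and TTTATNG can share letters, as they do in Tgm3.
Tgm3 (chr2:130012090-130012389, plus strand): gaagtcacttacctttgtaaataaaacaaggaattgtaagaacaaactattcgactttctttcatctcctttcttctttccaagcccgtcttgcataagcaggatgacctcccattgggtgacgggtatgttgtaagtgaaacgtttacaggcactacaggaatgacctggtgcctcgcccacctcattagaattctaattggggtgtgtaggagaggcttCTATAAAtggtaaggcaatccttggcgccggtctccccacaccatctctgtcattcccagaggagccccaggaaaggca
Ckmt1 (chr2:121357526-121357825, plus strand): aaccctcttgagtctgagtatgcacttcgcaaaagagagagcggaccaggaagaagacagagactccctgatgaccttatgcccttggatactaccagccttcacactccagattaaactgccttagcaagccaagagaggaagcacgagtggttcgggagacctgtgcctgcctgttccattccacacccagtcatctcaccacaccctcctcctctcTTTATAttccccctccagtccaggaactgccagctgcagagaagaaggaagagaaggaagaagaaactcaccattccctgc
Krt8 (chr15:102004293-102004592, minus strand): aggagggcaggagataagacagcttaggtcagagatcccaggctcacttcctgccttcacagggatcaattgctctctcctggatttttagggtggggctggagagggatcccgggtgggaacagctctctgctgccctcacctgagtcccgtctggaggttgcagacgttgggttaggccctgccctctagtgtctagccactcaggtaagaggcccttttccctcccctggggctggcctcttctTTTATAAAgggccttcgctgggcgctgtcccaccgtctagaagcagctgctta
Slc6a4 (chr11:76998347-76998646, plus strand): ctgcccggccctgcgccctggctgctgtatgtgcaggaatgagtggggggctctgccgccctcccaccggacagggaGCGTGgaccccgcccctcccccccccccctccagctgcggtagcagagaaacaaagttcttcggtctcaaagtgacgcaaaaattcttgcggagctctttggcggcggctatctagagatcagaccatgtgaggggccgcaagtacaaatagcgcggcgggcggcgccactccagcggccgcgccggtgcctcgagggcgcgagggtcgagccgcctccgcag
Krt18 (chr15:102027966-102028265, plus strand): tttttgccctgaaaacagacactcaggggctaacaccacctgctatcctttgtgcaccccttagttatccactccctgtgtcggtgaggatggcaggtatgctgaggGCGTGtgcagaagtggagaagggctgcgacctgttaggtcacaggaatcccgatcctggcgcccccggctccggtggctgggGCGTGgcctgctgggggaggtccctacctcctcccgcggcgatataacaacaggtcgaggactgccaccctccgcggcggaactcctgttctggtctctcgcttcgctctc

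TATAAA was found in 3 of the 10 start-site windows of members, those of Tgm3, Krt8 and the first start of Ckmt1. In Ckmt1 it lay on the opposite strand and began 31 bases before the start. Over all 32851 RefSeq windows, 13.6% held this motif. GCGTG was found in 1 member window, that of Slc6a4, against 32.4% of all windows, and 2 matches lay in the Krt18 window. TTTATNG was found in 2 member windows, those of Tgm3 and Mep1a, against 10.9% of all windows, and TTCNNNGAA in 1, that of Sprr2a3, against 8.3%. Neither of the 2 windows of 2210415F13Rik held any of the 4 motifs. A match is a description of letters in these windows and does not show binding.

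Summed over the 10 members, KO replicate 1 held 325 counts and KO replicate 2 held 1787, against 12 counts in WT replicate 1 and 40 in WT replicate 2. On the scale without Lars2 this was 10.5 and 33.7 CPM in KO and 0.447 and 0.652 CPM in WT. The means were 22.1 ± 16.4 CPM in KO and 0.549 ± 0.145 CPM in WT (SD, n = 2 each). The lower KO library stood 16.1-fold above the deepest library, WT replicate 2 (exact 95% interval 11.6 to 23.0, counting error only). Over pooled counts the members were 42.6-fold higher in KO (32.4 to 57.3), and 42.9-fold with Lars2 left in the totals. In bulk samples fewer cells of a type and less RNA per cell cannot be told apart.

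All 10 members had both KO libraries above both WT libraries, as did 9.42% of the 19081 genes with any count. In 9 of the 10, the lower KO library was at least 2-fold above the higher WT library or the WT floor, which held for 47 genes or 0.246%. Sprr2a3 was the member outside, at 1.73-fold, and Mep1a the one closest inside, at 2.60-fold. Nothing is read from these shares, because the members were chosen on this contrast.

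**Figure D1:**
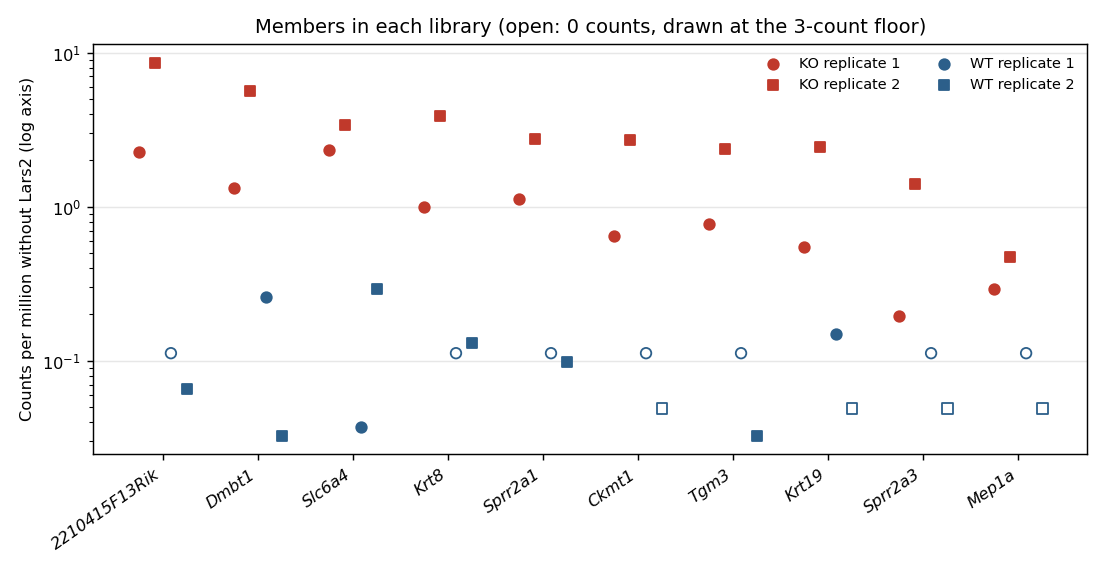
Level of each member in each library, in CPM of the total without Lars2 on a log axis, with circles for replicate 1 and squares for replicate 2. Open symbols are counts of 0 drawn at the floor of 3 counts. In every member both KO libraries lie above both WT libraries, and KO replicate 2 is the highest library.

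The first group of members acts at the surface that meets bacteria. 2210415F13Rik, named Lypd8 in RefSeq, encodes a membrane-anchored protein of the colon that binds flagellated bacteria and keeps them out of the inner mucus (chromosome 11, 58192545 to 58204230, plus strand, mm9). It had 70 and 457 counts in KO, against 0 and 4 counts in WT. Its levels were 2.26 and 8.61 CPM in KO, against 0.0 and 0.0652 CPM in WT. The groups did not overlap, and the pooled ratio of KO over WT was 138 (exact 95% interval 53.7 to 510). Ranked by the lower KO library over the higher WT library or floor, it came first of the 19081 genes, at 20.2-fold. Dmbt1, a secreted scavenger-receptor glycoprotein that binds bacteria (chromosome 7, 138175590 to 138265140, plus strand), had 41 and 301 counts in KO, against 7 and 2 in WT. That was 1.32 and 5.67 CPM in KO and 0.261 and 0.0326 CPM in WT. The pooled ratio was 39.9 (20.8 to 88.0). In WT, Dmbt1 was higher in replicate 1 than in replicate 2, the reverse of KO.

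Small proline-rich proteins are cross-linked into the envelope of surface epithelial cells, and Sprr2a is also made by the gut lining in response to bacteria. Sprr2a1 (chromosome 3, 92019757 to 92026407, plus strand) had 35 and 146 counts in KO, against 0 and 6 in WT, or 1.13 and 2.75 CPM against 0.0 and 0.0978 CPM in WT. Sprr2a3 (chromosome 3, 92054654 to 92093169, plus strand) had 6 and 75 counts in KO, against 0 in both WT libraries, or 0.194 and 1.41 CPM in KO. Its KO libraries differed most among the members. Because their rows overlap and their start regions repeat, the 3 copies were also summed. Together Sprr2a1, Sprr2a2 and Sprr2a3 had 75 and 370 counts in KO, against 3 and 7 in WT, and the levels were 2.42 and 6.97 CPM in KO and 0.112 and 0.114 CPM in WT. The pooled ratio of the sum was 46.7 (25.2 to 98.1). If reads in overlapping rows were counted in more than 1 row, the sum repeats them and this interval is too narrow. Of the other family members in the table, Sprr2b and Sprr2e had 11 counts each and Sprr2i had 2 counts, all in KO replicate 2.

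Tgm3, a transglutaminase that cross-links proteins such as the small proline-rich family (chromosome 2, 129838085 to 129876135, plus strand), had 24 and 126 counts in KO, against 0 and 2 in WT. Its levels were 0.775 and 2.38 CPM in KO, against 0.0 and 0.0326 CPM in WT, and the pooled ratio was 78.7 (21.4 to 656). The wide interval reflects the 2 WT counts. Of the 6 other genes found from the transglutaminase list, Tgm2 had 8.98 and 8.26 CPM in KO against 7.0 and 8.41 CPM in WT. Tgm1 had 0.517 and 0.32 CPM in KO against 1.01 and 0.456 CPM in WT. Both overlapped between genotypes.

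Transport, energy and peptide digestion made up the next group. Slc6a4, the serotonin transporter, which clears serotonin at the gut epithelium as well as at nerve endings (chromosome 11, 76812105 to 76845842, plus strand), had 72 and 181 counts in KO, against 1 and 18 in WT. Its levels were 2.32 and 3.41 CPM in KO, against 0.0372 and 0.293 CPM in WT. It had the smallest pooled ratio among the members with a WT count, 14.0 (8.77 to 23.6). The vesicular monoamine transporter genes did not follow to that extent. Slc18a2 overlapped, at 7.68 and 8.44 CPM in KO and 8.71 and 6.55 CPM in WT, and Slc18a1 stood at 2.71 and 3.22 CPM in KO and 1.56 and 1.96 CPM in WT. Tph1, which makes serotonin in enterochromaffin cells, had 2.23 and 4.49 CPM in KO and 3.76 and 5.75 CPM in WT, with the groups overlapping.

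Ckmt1, the mitochondrial creatine kinase of epithelia and brain (chromosome 2, 121183450 to 121189473, plus strand), had 20 and 143 counts in KO and none in either WT library. That was 0.646 and 2.70 CPM in KO. Against the floor of 3 counts over the WT group, it was at least 57.0-fold higher in KO. The cytosolic brain-type creatine kinase gene Ckb, which T cells also express, had 56.0 and 69.3 CPM in KO and 57.3 and 67.2 CPM in WT. Mep1a, the alpha subunit of the brush-border metalloprotease meprin (chromosome 17, 43611273 to 43639761, minus strand), had 9 and 25 counts in KO and none in WT, or 0.291 and 0.471 CPM in KO. It was at least 11.9-fold higher in KO by the same floor. Its partner subunit Mep1b had no count in KO and 2 and 1 counts in WT, which is at or under the floor in both groups.

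The keratins came last. Krt8, a type II keratin of simple epithelia (chromosome 15, 101827142 to 101834773, minus strand), had 31 and 204 counts in KO, against 0 and 8 in WT. That was 1.0 and 3.85 CPM in KO and 0.0 and 0.13 CPM in WT, a pooled ratio of 30.8 (15.4 to 72.3). Krt19, a type I keratin of the same cells (chromosome 11, 100002124 to 100007434, minus strand), had 17 and 129 counts in KO, against 4 and 0 in WT. Its levels were 0.549 and 2.43 CPM in KO and 0.149 and 0.0 CPM in WT, a pooled ratio of 38.3 (14.7 to 143). Krt18, the type I partner with which Krt8 forms filaments, lies 23874 bases from Krt8 and stood lower in both KO libraries, at 1.42 and 1.53 CPM in KO and 2.01 and 2.35 CPM in WT. Its fitted log2 fold change was -0.53 ± 0.30 (SE), with an edgeR adjusted p of 1.00. Krt20, a keratin of surface colonocytes, had 4 and 18 counts in KO and 2 and 0 in WT.

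**Figure D2:**
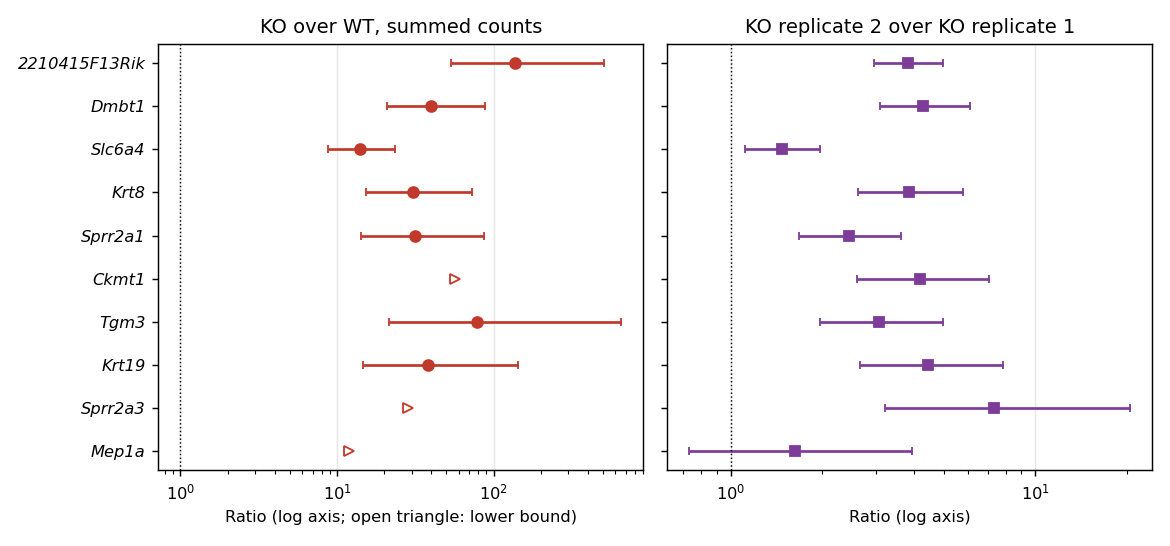
Left, pooled count ratio of KO over WT for each member with its exact 95% interval, log axis. Open triangles are lower bounds for the 3 members with no WT count. Right, ratio of KO replicate 2 over KO replicate 1 with its interval. The right-hand ratios run from 1.47 for Slc6a4 to 7.30 for Sprr2a3, and all are above 1.

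The 2 KO libraries were far from equal. KO replicate 2 exceeded KO replicate 1 in all 10 members, and the exact interval of that ratio lay above 1 in 9 of them, with Mep1a the exception (1.62, interval 0.732 to 3.95). Summed over members the ratio of KO replicate 2 over KO replicate 1 was 3.21 (2.85 to 3.62), against 1.46 (0.75 to 3.05) for WT replicate 2 over WT replicate 1. By counting error alone, the ratio was not the same for every member. Slc6a4 had 1.47 (1.11 to 1.96), while 2210415F13Rik had 3.81 (2.96 to 4.97), Dmbt1 4.29 (3.09 to 6.09) and Krt8 3.84 (2.62 to 5.80). The interval of Slc6a4 did not overlap those of the other 3, nor those of Sprr2a3, Tgm3, Ckmt1 and Krt19. It did overlap those of Sprr2a1 (1.67 to 3.63) and Mep1a. These intervals compare 1 library with 1 library and do not cover the spread between samples.

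edgeR's quasi-likelihood test, fitted over all 14274 genes that passed its filter, called 0 genes higher in KO at an adjusted p under 0.05 (0.0%) and none of the members. At an unadjusted p under 0.05 it took 234 genes as higher (1.64%), among them all 9 members tested, and 173 genes as lower (1.21%). Sprr2a3 did not pass the filter. All 9 passed through their KO libraries, and 0 would have passed on WT alone, so they had to differ. Without the filter edgeR called 36 genes higher (0.189% of 19081), 9 of the 10 members among them, all but Mep1a. DESeq2 called 30 genes higher (0.178% of 16871), 8 of the 10 members among them, all but Krt19 and Mep1a. Of the genes in the authors' deposited table, 31 had an adjusted p-value under 0.05 and a higher mean in KO (0.162%), 9 of the 10 members among them, and Mep1a stood at 0.454. All of these counts rest on the contrast that chose the members and support nothing further. Fitted log2 fold changes of the 9 tested members had a median of 4.95, against 0.01 over all genes tested. Among those with a WT count they ran from 3.94 ± 0.72 for Slc6a4 to 6.93 ± 1.05 for 2210415F13Rik (SE). Ckmt1 and Mep1a had no WT count, so their fitted values depend on the prior count, and with both at their floor bounds the median was 4.91.

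Other epithelial genes were taken from 9 marker lists, leaving out the members. Of 106 listed genes, 87 non-members were in the table, 1 of them with no count, and 40 were tested. Fitted log2 fold changes were above 0 in 26 and below 0 in 14, with a median of 0.22. edgeR called none of the 40 (0.0% of all genes tested), DESeq2 none of the 87, and the authors' deposited table held 1 call, Car1. Both KO libraries lay above both WT libraries in 24 of the 87, beside 9.42% of all genes with a count. They lay below in 11 of the 87, beside 15.5% of all genes. Some genes on either side rest on counts under the floor of 3. Defa24, Sis and Slc5a1, among the 24, had 2 counts each in KO replicate 1. Ang4 and Mep1b, among the 11, had at most 2 counts in a WT library. The lists were chosen with earlier results known.

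Of the 18 pan-epithelial genes found, which mark the lineage as a whole, 8 had both KO libraries above both WT libraries, 3 had both below and the rest overlapped. The 3 below were Epcam, Ocln and Krt18. Epcam, the epithelial adhesion molecule, had 12.1 and 13.7 CPM in KO and 14.7 and 15.0 CPM in WT. Ocln, of tight junctions, had 5.04 and 4.96 CPM in KO and 7.11 and 7.24 CPM in WT. Both had an edgeR adjusted p of 1.00. The 8 above were Cdh1, Cldn3, Cldn7, Hnf4a, Krt20, Lgals4, Pigr and Vil1. Lgals4, a galectin of the gut lining, had 9.20 and 14.1 CPM in KO and 7.89 and 8.51 CPM in WT. Cdh1, the E-cadherin gene, had 0.839 and 1.51 CPM in KO and 0.261 and 0.652 CPM in WT, and Pigr, which carries IgA across the epithelium, had 1.10 and 2.41 CPM in KO and 0.484 and 0.587 CPM in WT. Cldn3, a tight junction claudin, had 4 and 25 counts in KO and 1 and 0 in WT, a pooled ratio of 30.4 (5.05 to 1240) that rests on 1 WT count. Hnf4a, a transcription factor of gut and liver epithelium, had 7 and 26 counts in KO and 4 and 0 in WT. Cldn7 had 0.807 and 0.584 CPM in KO and 0.484 and 0.407 CPM in WT, and Vil1, which encodes the brush-border protein villin, had 1.84 and 2.36 CPM in KO and 1.71 and 1.68 CPM in WT. None of the tested genes passed edgeR.

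The list's sum depended on its abundant genes. All 18 genes summed to 33.4 and 43.7 CPM in KO and 35.4 and 37.2 CPM in WT. The 12 genes with a mean under 1 CPM summed to 2.71 and 4.73 CPM in KO and 1.42 and 1.83 CPM in WT, a pooled ratio of 2.34 (1.93 to 2.86). Of these 12, 5 had both KO libraries above both WT libraries and 0 had both below. Over all 87 markers, the 69 with a mean under 1 CPM summed to 14.4 and 18.4 CPM in KO and 13.8 and 12.4 CPM in WT, a ratio of 1.32 (1.22 to 1.43), with 16 above and 7 below. These intervals cover counting error only. Cdx2 and Phgr1 of the pan-epithelial list were not analysed here.

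Among colonocyte genes, Car1, the carbonic anhydrase of colon surface cells, had 28 and 201 counts in KO, against 0 and 20 in WT. That was 0.904 and 3.79 CPM in KO and 0.0 and 0.326 CPM in WT, a pooled ratio of 12.0 (7.60 to 20.1). Its adjusted p was 1.00 in edgeR, 1.00 in DESeq2 and 2.48e-04 in the authors' deposited table. Slc26a3, the colonic chloride exchanger, had 0.484 and 0.735 CPM in KO and 0.261 and 0.244 CPM in WT. Ceacam1 overlapped, at 0.323 and 1.32 CPM in KO and 0.372 and 0.277 CPM in WT. Of the 15 colonocyte genes found besides 2210415F13Rik, 4 had both KO libraries above both WT libraries and 2 had both below. The shares over all genes with a count were 9.42% and 15.5%. The 4 above were Car1, Cyp2c55, Slc26a3 and Slc37a2. The 2 below were Tmigd1, at 0.775 and 0.226 CPM in KO and 1.12 and 0.929 CPM in WT, and Aqp4. Aqp4 had 0.0646 and 0.207 CPM in KO and 0.41 and 0.375 CPM in WT.

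Markers of other epithelial cell types were counted in the same way. Beside these short lists, 9.42% of all genes with a count lay above and 15.5% below. The small intestine enterocyte list had 10 genes found, with 2 above (Sis and Slc5a1) and 1 below (Mep1b). It summed to 2.2 and 1.79 CPM in KO and 2.16 and 1.76 CPM in WT. Of 11 goblet cell genes, 2 lay above (Clca1 and Sytl2) and 3 below (Agr2, Ang4 and Clca3). The mucin gene Muc2 overlapped, at 0.387 and 0.848 CPM in KO and 0.521 and 0.147 CPM in WT. Of 8 enteroendocrine genes, 2 lay above and 0 below. Gcg, the proglucagon gene, had 5.97 and 5.09 CPM in KO and 1.82 and 3.59 CPM in WT, and Chga had 0.452 and 0.829 CPM in KO and 0.41 and 0.44 CPM in WT. Of 8 stem and transit genes, 1 lay above and 1 below. The stem cell gene Lgr5, the one above, had 6 and 5 counts in KO and 0 and 2 in WT, a pooled ratio of 5.77 (1.26 to 53.6). Axin2, the one below, was far more abundant, at 34.8 and 32.8 CPM in KO and 39.3 and 41.0 CPM in WT. Of 6 tuft cell genes, 1 lay above (Dclk1) and 1 below (Sh2d6), and so did 1 and 1 of 4 Paneth cell genes. The Paneth gene Lyz1 overlapped, at 3.52 and 2.73 CPM in KO and 2.38 and 3.42 CPM in WT. Defa24, a defensin gene and the one above, had 2 and 6 counts in KO and 0 in both WT libraries. Ang4, the Paneth gene below, had 0 counts in both KO libraries and 1 and 1 in WT. Of 8 epithelial defence genes, 3 lay above and 0 below.

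Of the 8 squamous genes found, 1 lay above and 1 below, beside 9.42% and 15.5% of all genes with a count. The gene above was Trp63, a transcription factor of basal cells, with 3 and 11 counts in KO and 0 and 1 in WT, a pooled ratio of 14.7 (2.24 to 621). The gene below was the basal keratin gene Krt5, with 0 counts in both KO libraries and 2 and 2 in WT. These Krt5 counts are under the floor of 3. Sfn held nearly all of the list's sum, at 52.4 and 47.5 CPM in KO and 54.6 and 48.5 CPM in WT. The other 7 genes summed to 0.613 and 0.641 CPM in KO and 1.08 and 0.538 CPM in WT.

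**Figure D3:**
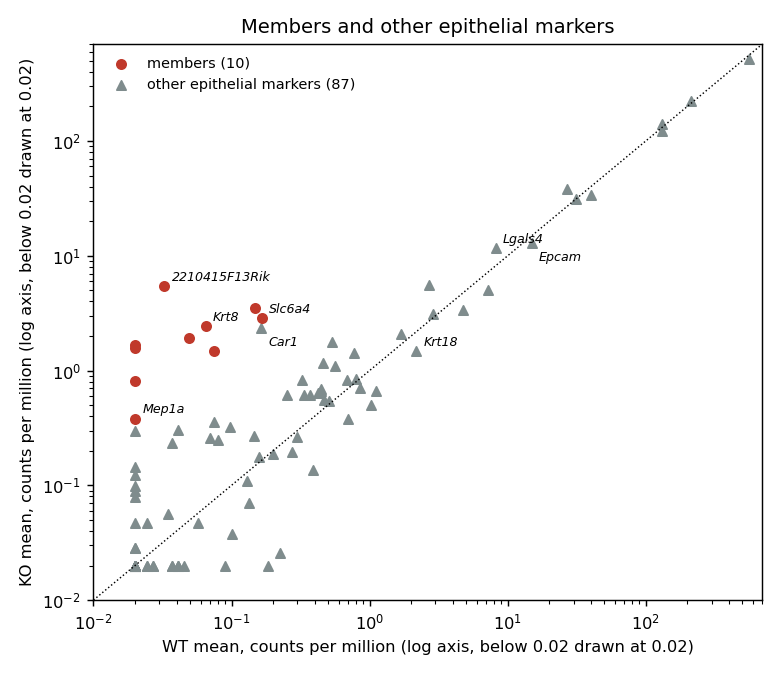
Mean level in KO (vertical) against WT (horizontal) for the 10 members and the 87 other epithelial markers, in CPM without Lars2 on log axes. The dotted line marks equal levels, and means near 0 are drawn at the low edge of the points. All 10 members lie above the line, as does Car1, while the other markers lie on both sides, with Epcam and Krt18 below it.

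Marker sums of cell types besides Treg cells differed between replicates within each genotype. The 14 stromal and endothelial genes summed to 120 and 215 CPM in KO and 128 and 210 CPM in WT, all of them detected. Pecam1 alone held 104 and 107 CPM in KO and 107 and 117 CPM in WT. The other 13 summed to 15.7 and 108 CPM in KO and 20.4 and 92.7 CPM in WT, so that replicate 2 was 6.89-fold above replicate 1 in KO and 4.55-fold in WT. Col3a1, a fibroblast collagen gene, had 3.97 and 44.6 CPM in KO and 5.55 and 39.2 CPM in WT. The 13 macrophage and dendritic genes found summed to 127 and 56.5 CPM in KO and 172 and 80.2 CPM in WT. Plasma cell genes summed to 567 and 827 CPM in KO and 550 and 699 CPM in WT, and B cell genes to 26.5 and 21.5 CPM in KO and 28.1 and 29.0 CPM in WT. Much of the plasma sum was Prdm1 (215 and 250 CPM in KO, 199 and 219 in WT) and Xbp1 (213 and 223 in KO, 217 and 209 in WT). Its replicate difference rested mostly on Igj, at 130 and 341 CPM in KO and 122 and 258 CPM in WT. Stromal and plasma sums were higher, and macrophage sums lower, in replicate 2 of both genotypes, and KO replicate 2 was also the KO library with the higher member counts. The part of any of these, or of the epithelial lists, in the member differences was not tested.

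**Figure D4:**
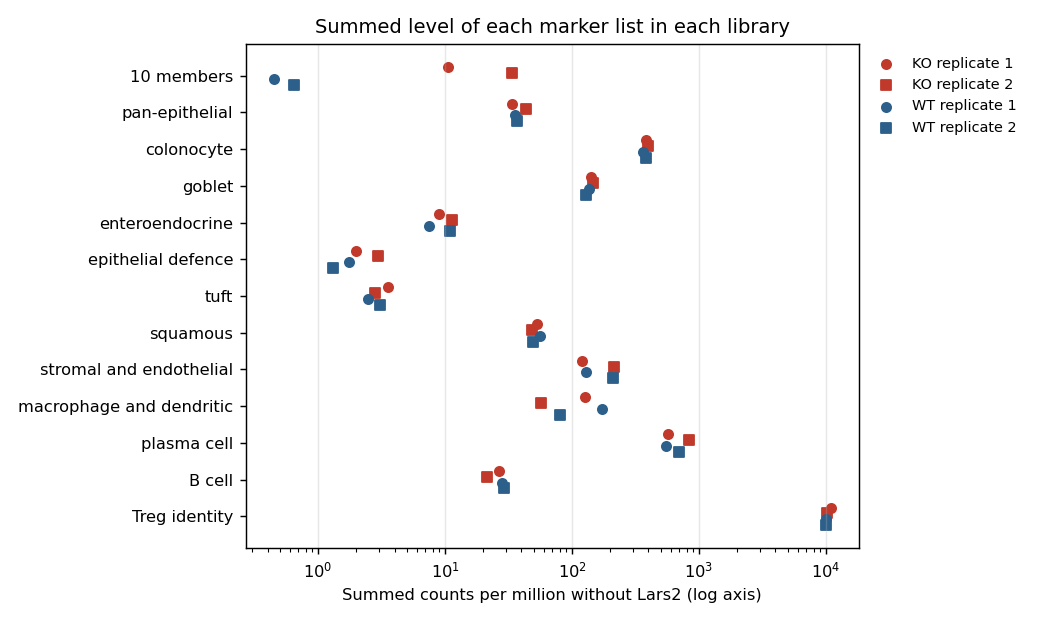
Summed level of the members and of 12 marker lists without the members in each library, in CPM without Lars2 on a log axis. The member sums run from 0.447 to 33.7. Sums of other lists can rest on 1 or a few abundant genes, such as Epcam (pan-epithelial), Sfn (squamous) and Pecam1 (stromal and endothelial). The plasma cell sum rests largely on Igj, Prdm1 and Xbp1.

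The genes around the members were examined within 100 kb. Of 35 non-member neighbours, 5 had both KO libraries above both WT libraries and 4 had both below, and DESeq2 called 1, Sprr2a2. Over all genes with a count, 9.42% lay above and 15.5% below, and DESeq2 called 0.178% of its genes higher. Among the 5 above, Sprr2a2 overlaps member rows, and 4930438A08Rik, 1810065E05Rik and Tgm6 had at most 4 counts in any library. Blmh, 11224 bases from Slc6a4, had 62.9 and 63.2 CPM in KO and 63.8 and 75.0 CPM in WT. Strc overlaps the end of Ckmt1 by 10 bases on the other strand and had 7 and 15 counts in KO and 3 and 1 in WT. The whole Dmbt1 row, 89551 bases, lies within the row of Fgfr2 on the other strand. Fgfr2 had 0 and 30 counts in KO and 6 and 17 in WT. Any strand setting is not stated, so reads of these overlapping rows cannot be told apart with certainty. 1810065E05Rik, a neighbour of 2210415F13Rik, had 2 and 4 counts in KO and 0 in both WT libraries.

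Among tested genes, those whose profile over the 4 libraries lay closest to the mean of the tested members were taken. The measure was the Euclidean distance between centred log2 CPM. Genes that did not pass the edgeR filter could not be named in this way. The tested members themselves lay 0.309 (Tgm3) to 1.92 (Krt19) from their mean, which each of them enters, so their distances are smaller by construction. The 8 nearest tested non-members were Sprr2a2 (1.25), Myh14 (1.37), Ms4a8a (1.51), Gm3054 (1.74), Car1 (1.93), Adcy10 (2.19), Ccl9 (2.40) and Elovl7 (2.40). Myh14, a non-muscle myosin heavy chain, had 10 and 30 counts in KO and 0 and 1 in WT. Ms4a8a had 8 and 23 counts in KO and 0 in both WT libraries. Ccl9, a chemokine gene, differed from the members in its KO libraries, with 2.0 and 1.62 CPM in KO and 0.335 and 0.261 CPM in WT, so that replicate 2 was not the higher. These distances cover 4 libraries and share their depth, and they are given as a description.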

How the data were processed

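RNA-seq of sorted large intestine Treg cells was used (2 KO and 2 WT libraries, 50 bp single-end reads), while chromatin accessibility libraries of the series were left aside. The values are whole-number counts per gene, not normalized, in the authors' deposited table, which also holds an adjusted p-value per gene in the authors' deposited form. No comparison is named for it, and it was read as KO over WT. The submitters' processing notes list mm9, TopHat2 and DESeq, while the counting tool, the annotation and any strand setting are not stated.

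The table held 19191 rows, 110 without a count and 41 that repeat a symbol. The total count per library ran from 26862922 to 62402450. Levels and count ratios used totals without Lars2. Exact conditional 95% intervals (Clopper-Pearson, SciPy 1.17.1) and floors of 3 counts cover counting error only, since no molecular identifiers are stated for the reads. The test was edgeR 4.0.16 in R 4.3.3 (quasi-likelihood F-test, genotype only, filterByExpr, TMM, Benjamini-Hochberg adjusted p under 0.05) on the whole table. Alternatives were DESeq2 1.42.0, limma 3.58.1 (voom), other scalings and filters, the replicate number as a block, and leaving out each library. Each SE of a fitted log2 fold change was worked back from the test. It is the size of the change without its sign, divided by the square root of the F statistic. The fit and the ratios were tested on simulated data.

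The members and lists were chosen with earlier results of these data known. The naming rule took all members, the up to 4 genes of highest mean count in each list plus any gene called by edgeR or DESeq2, the 8 nearest profiles, Lars2 and neighbours within 100 kb. Other genes named, the last observations included, were chosen after their values were seen. Because separate animals are not stated, the p-values reflect a spread among libraries that could be technical.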

Additional observations from a re-analysis of the deposited data

How the results depend on the processing

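Both KO libraries stayed above both WT libraries in all 10 members with DESeq2 size factors and with Lars2 kept in the totals. The choice of members on this contrast fixes this direction, under these scalings as when a library is left out. Across 100 refits of single members over 12 alternatives, every log2 fold change was above 0, 83 within the spread between library pairs and 17 outside it. The sign was fixed in the same way. The number of genes called was 0 in the main edgeR test, 52 without a filter, 48 with DESeq2 and 458 with the replicate block, and 0 to 2 without a library. Same-numbered libraries deviated together (correlation 0.641 across genes), but the labels do not pair them, and the blocked fit has 1 residual degree of freedom. It called all 9 members tested. The members' median log2 fold change, 4.95, was 6.12 without KO replicate 1, 3.91 without KO replicate 2, 6.55 without WT replicate 1 and 8.41 without WT replicate 2, and different numbers of members entered these fits (8 to 10). The median over other epithelial markers was 0.22, ran from 0.21 to 0.46 without a library, and was -0.01981 with the stricter filter (2 CPM or more in at least 2 libraries), which left 14 of those genes and 2 of the members. With WT counts of 0 to 18 per member, the depth limits the size of each ratio. Causes were not tested.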

Other observations

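Several genes besides the members had nearly all their counts in KO replicate 2. The 4 given here are known from epithelium and were picked from a ranking after its values were seen. That ranking also held genes not known as epithelial markers, such as Abca8b (rank 7) and Sox13 (rank 9). Slc6a14, an amino acid transporter, had 2 and 104 counts in KO and 0 and 1 in WT, which was 0.0646 and 1.96 CPM in KO and 0.0 and 0.0163 CPM in WT. Cldn8, a tight junction claudin of the distal colon, had 3 and 61 counts in KO and 0 in both WT libraries. Atp12a, a colonic proton pump, had 4 and 52 counts in KO and 0 and 3 in WT. Gpa33, an intestinal surface antigen, had 3 and 33 counts in KO and 0 and 2 in WT. None of these 4 passed the edgeR filter. By the ratio of KO replicate 2 to the highest other library or floor, Slc6a14, Cldn8 and Atp12a held ranks 1 to 3 of all genes, and Sprr2a3 rank 4 at 7.30-fold.

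Muc13, a membrane mucin, had 39 and 225 counts in KO and 16 and 31 in WT, a pooled ratio of 5.90 (exact 95% interval 4.31 to 8.22). Its adjusted p was 1.00 in edgeR and 0.194 in DESeq2, and 5.19e-04 in the authors' deposited table. Gsdmc4, a gasdermin gene, had 28 and 90 counts in KO and 10 and 14 in WT, a ratio of 5.16 (3.31 to 8.37), with an edgeR adjusted p of 1.00.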
